A study of Rattus norvegicus with 36 samples.

Results

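The genes described here are 77 genes of cilia and of the axoneme, the microtubule core of a cilium, out of 14217 genes measured in rat vocal fold (VF) mucosa. Membership was set by a rule on gene symbols, which uses no measured value, although the gene set was picked with earlier results of these data known. A gene was a member if its symbol was Foxj1 or began with Dnah, Dnai, Dnaaf, Tekt, Rsph, Cfap, Cimap, Spag or Bbs, or with Ift and a digit. The members had 97 probe sets on the array, and 16 members had more than 1. Each of these genes was represented by the probe set with the median mean intensity. By symbol they fell into Foxj1, 6 axonemal dynein chains, 6 dynein assembly factors, 7 tektins, 5 radial spoke genes, 22 Cfap and Cimap genes, 17 intraflagellar transport (IFT) genes, 7 Bardet-Biedl syndrome (Bbs) genes and 6 Spag genes. The first 6 of these groups hold 47 genes and are called motile cilium members below, while the 24 Ift and Bbs genes are called transport members.

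Motile cilia of airway epithelium beat because dynein arms slide the outer microtubule doublets of the axoneme against each other, and radial spokes and the central pair set the pattern of the beat. Tektins and many Cfap proteins line or brace the doublets, dynein arms are put together in the cytoplasm by assembly factors before they are carried into the cilium, and FOXJ1 is the transcription factor that switches on the motile cilium genes. IFT trains and the BBSome move cargo along cilia of all kinds, so their genes are also used by the primary cilia of cells such as fibroblasts. Ciliated epithelium lines much of the larynx, while the vibrating edge of the vocal fold is covered by stratified squamous epithelium. The name of a Spag gene, sperm-associated antigen, records how the protein was found, and the 6 Spag genes have unrelated roles.

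Male Fischer 344 rats aged 120 days received bilateral stripping injuries of the VF mucosa and were compared with experimentally naïve rats of matched age. Mucosa was microdissected at 3, 14 or 60 days post-injury (PI), at ages of 123, 134 and 180 days, and each array held the pooled bilateral mucosae of 4 rats. By the labels there were 5 PI and 3 control arrays at 3 days, 5 and 3 at 14 days, and 5 and 2 at 60 days. The methods count 4 PI and 3 control arrays for the last time point, which is 1 PI array fewer and 1 control array more than the labels give. The labels were followed, but 1 or more of the 60-day labels may be wrong, and this bears on every 60-day value. All mucosa arrays shared 1 estimate of the spread per gene. The 60-day arrays therefore also bear on the standard errors and p-values at 3 and 14 days, though not on the differences there. VF fibroblasts cultured from naive rats, on 3 arrays, served as a cell type without motile cilia. Each of these cultures was grown from the mucosae of 1 rat aged 180 days and was used at its first passage. The values are log2 robust multi-array average (RMA) intensities, on which a difference of 1 is a doubling. Each probe set has its own affinity, so levels of different genes were not compared. In whole mucosa, fewer cells of a type and less RNA per cell cannot be told apart, and p-values measure the spread between arrays.

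The 2 control arrays at 60 days differed from each other in most of these genes. The Spag genes differed little as a group, with medians of -0.07 and 0.07 from the mean of the 2 arrays. Some members, such as Dnah17 (5.26 and 4.89), were higher in array 1. Against the mean of the 6 control arrays of 3 and 14 days, the median difference over the 47 motile cilium members was 0.07 in 60-day control array 1 and 1.05 in 60-day control array 2, and the latter value is above those of the PI arrays at 14 days (0.62 to 1.02). In the array labelled control replicate 2, 64 of 77 members lay above the highest of the 6 younger controls, against 19 of 77 in control replicate 1. Among the 60-day PI arrays, replicate 4 had a median of -0.08, replicate 3 a median of 0.21, and replicates 1, 2 and 5 medians of 0.79, 0.86 and 0.62. The share of all genes above the younger controls was 21% in 60-day control array 1, 17.9% in control array 2 and 27.8% in PI array 4. For the members it was 24.7% in control array 1, near the share of all genes. The injury and time comparisons that involve 60 days are therefore, where possible, also described without these 2 arrays. PI array 5 at 3 days, control array 3 at 14 days and PI array 4 at 60 days also deviated together over all genes, with pairwise Pearson's r of 0.45 to 0.60 between their deviations, described across genes that are not independent. The median deviation of the members from their group mean was 0.34, 0.00 and -0.28 in these 3 arrays.

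**Figure D1:**
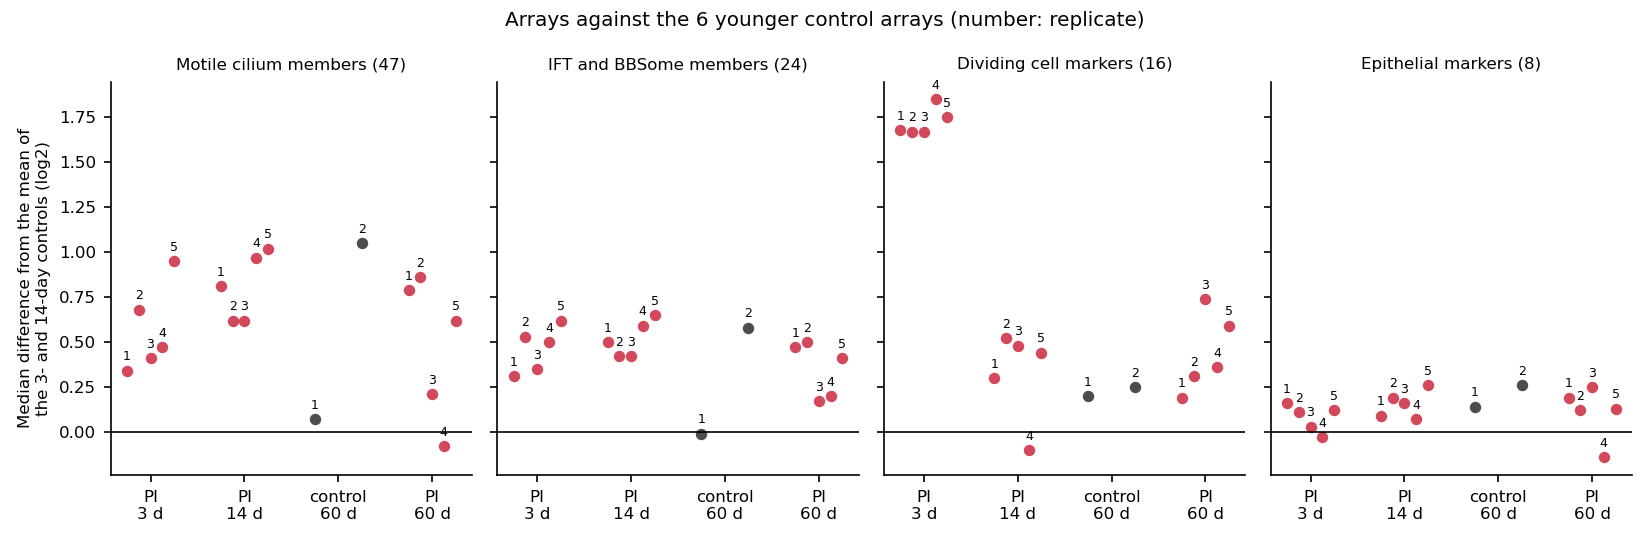
Median difference (log2) of each array from the mean of the 6 control arrays of 3 and 14 days, over the 47 motile cilium members, the 24 transport members, 16 markers of dividing cells and 8 epithelial markers. Red points are PI arrays, dark points are 60-day control arrays, and numbers are replicates. 60-day control array 2 lies at 1.05 in the first panel, with the 14-day PI arrays, and control array 1 at 0.07.

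The promoters were examined for shared letters. RFX transcription factors, which act with FOXJ1, bind a motif called the X-box. RefSeq promoter windows of 300 bases on GRCr8, 250 before and 50 after each start, were found for 64 of the 77 members. One arm of the motif with the start of the other, read on either strand as GTT, any base, CC, any pair of bases and GG, stood in 28.1% of these 64 genes (exact 95% binomial interval 17.6 to 40.8), in 7.31% of the 11700 tested genes with a window, and in 6.73% of all 27457 genes with one. The shorter GTTGCC, which the longer form can contain, stood in 35.9% of the members and 13.0% of the tested genes. TGTTTAC, a forkhead motif, stood in 3.12% of the members (2 of 64, exact interval 0.381 to 10.8). It stood in 2.71% of the tested genes and 4.13% of all genes with a window. The X-box arm stood in 29.3% of the 41 members that were higher at 3 or 14 days PI (exact interval 16.1 to 45.5). In the other 23 it stood in 26.1% (10.2 to 48.4). These intervals are too wide to show the shares to be equal or different. The windows below, 5′ to 3′ on the strand of the gene, show it in 5 members with different symbol prefixes that were higher at 3 or 14 days PI. Capitals mark the match, which reads from the opposite strand in Cfap298 and Ift70b, and all bases lie before the start.
Dnah2, chr10:54766037-54766096, minus strand: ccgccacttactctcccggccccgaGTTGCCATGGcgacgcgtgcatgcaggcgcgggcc
Dnaaf5, chr12:20606481-20606540, minus strand: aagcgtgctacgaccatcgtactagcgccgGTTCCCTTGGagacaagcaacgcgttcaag
Cfap298, chr11:43677435-43677494, minus strand: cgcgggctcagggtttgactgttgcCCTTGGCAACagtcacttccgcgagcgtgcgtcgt
Ift70b, chr3:81265646-81265705, minus strand: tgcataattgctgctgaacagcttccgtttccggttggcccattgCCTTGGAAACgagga
Bbs5, chr3:74818576-74818635, plus strand: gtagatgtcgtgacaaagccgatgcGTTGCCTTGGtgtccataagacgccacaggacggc
A match is a description of letters, and binding was not measured.

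After injury, 39 of the 77 members rose at 3 days, 26 rose at 14 days, and none was called at 60 days. The rises at 3 days stood beside 1 member that was lower and 37 that were not called (limma, Benjamini-Hochberg adjusted p under 0.05 over 14217 genes), while 26.5% of all genes were called, 14.5% higher and 12% lower. At 14 days 0 members were lower and 51 were not called, while 3.07% of all genes were called, 2.11% higher and 0.957% lower. The lognormal-normal model named in the methods called 33 members at 3 days and 41 at 14 days, all 41 of the latter higher, where it called 15% and 4.38% of all genes. The median log2 fold change over the 77 members was 0.45 at 3 days, 0.59 at 14 days and -0.01 at 60 days, against 0.01, 0.00 and -0.03 over all genes. It was positive in 66, 72 and 36 members, and in 51.3%, 49.7% and 43.1% of all genes. Every PI array lay above every control array in 47 members at 3 days and in 57 members at 14 days, where this held for 17.6% and 7.95% of all genes. At 60 days it held for 0 members and 4.4% of all genes. Of the 77 members, 16 were called at both times, 24 at 3 days alone, 10 at 14 days alone and 27 at neither. The adjusted threshold depends on how many genes change, so an equal difference could be called at 3 days and missed at 14 days. Counts of calls at the 2 times therefore do not measure a difference between the times. Both sets of calls rested on few control arrays. Without control array 3 at 3 days 23 members were called at that time, and the count over all genes went from 3771 to 2729. Without control arrays 1, 2 or 3 at 14 days the 14-day counts were 7, 11 and 6 members, with 1.48%, 1.58% and 1.21% of all genes called. Without PI array 5 at 14 days 14 members and 1.82% of all genes were called.

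**Figure D2:**
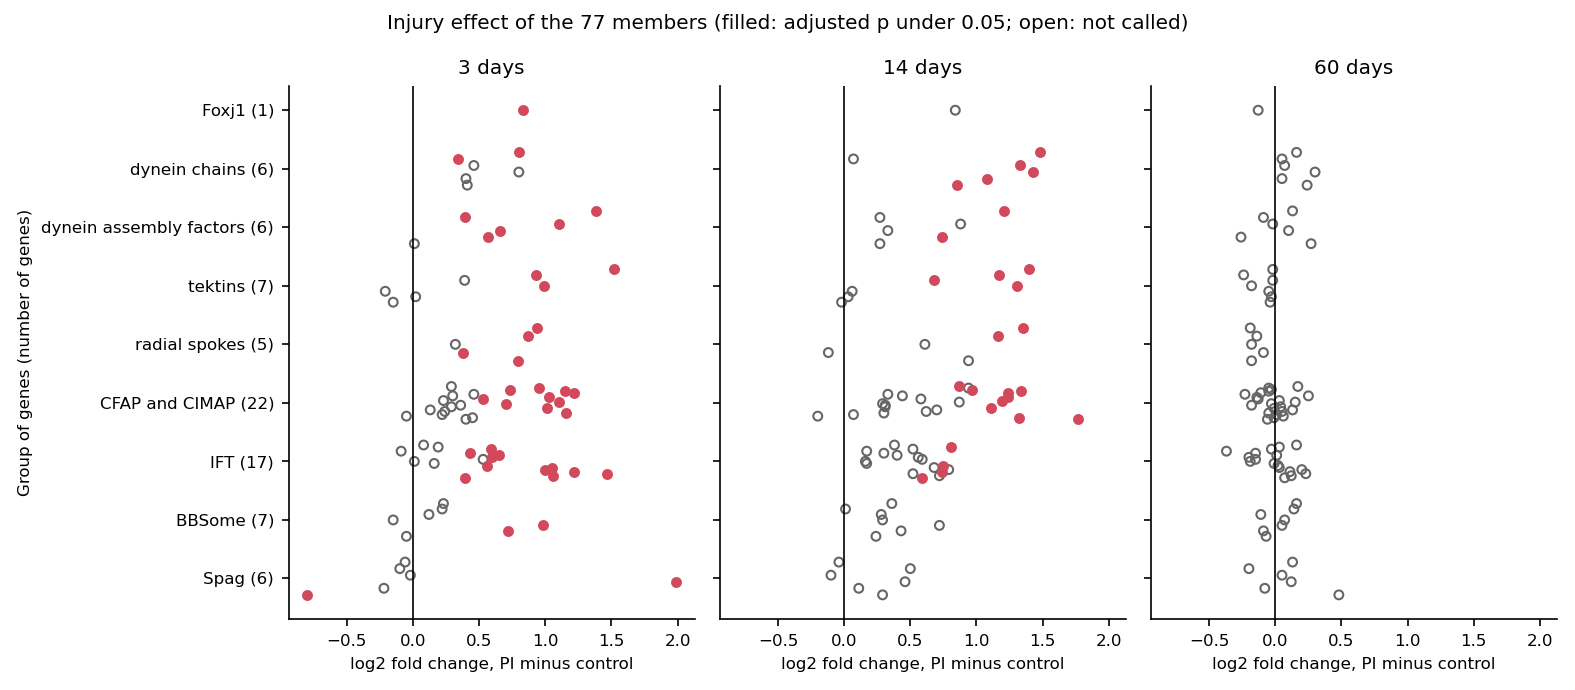
Log2 fold change, PI minus control, of each of the 77 members at 3, 14 and 60 days, grouped by symbol. Filled points had an adjusted p under 0.05 and open points did not. At 3 days 40 points are filled, at 14 days 26 and at 60 days 0.

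Foxj1, the transcription factor of motile ciliogenesis, read 8.91, 8.76 and 8.54 in the 3-day control arrays and 9.40, 9.48, 9.22, 9.77 and 9.98 in the PI arrays. All PI arrays were above all controls, and Foxj1 rose by 0.83 ± 0.25 (log2, SE; adjusted p = 0.0151). At 14 days it read 8.86, 8.89 and 8.72 in controls and 9.63, 9.45, 9.22, 10.22 and 9.80 in PI arrays. The arrays again did not overlap and the difference was 0.84 ± 0.25, with an adjusted p of 0.0700 that misses the threshold. At 60 days the controls read 8.91 and 10.02 and the PI arrays 9.66, 9.65, 8.98, 8.86 and 9.50, so that all PI arrays but 1 lay between the 2 controls.

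Of 12 measured regulators of multiciliated cells outside the members, 6 were higher at 3 days and 1 at 14 days, and none was lower at either time. Ccno, a cyclin-like protein needed for centriole amplification, had a mean of 6.56 in 3-day controls and 10.09 in PI arrays, and rose by 3.53 ± 0.41 (adjusted p = 1.64e-06). Deup1, a scaffold of the deuterosome on which centrioles are multiplied, rose by 2.46 ± 0.30 at 3 days and by 1.33 ± 0.30 at 14 days (adjusted p = 3.02e-06 and 0.0152). Myb, a transcription factor active early in multiciliated cells, rose by 1.70 ± 0.27 at 3 days (adjusted p = 5.99e-05). Plk4 and Cep152, which build centrioles in dividing cells too, rose by 2.93 ± 0.22 and 0.82 ± 0.13, and the cell cycle factor E2f5 by 0.33 ± 0.10. Gmnc, which acts at the start of the programme, had a difference of 0.00 ± 0.29 at 3 days, and Rfx2 and Rfx3, of the X-box binding family, had differences of 0.01 ± 0.13 and 0.49 ± 0.24 that were not called.

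Dynein chains, the motors of the beat, were called more often at 14 days (5 of 6) than at 3 days (2 of 6), and all 6 fold changes were positive at both times. The test of the difference between the times called none of the 6. Dnah1, a heavy chain of the inner arms, read 8.27, 8.29 and 7.90 in 3-day controls and 8.62, 9.0, 8.61, 8.73 and 9.82 in PI arrays. It read 7.91, 8.25 and 8.14 in 14-day controls and 9.40, 9.57, 9.34, 9.71 and 9.88 in PI arrays. PI and control arrays were apart at both times, and Dnah1 rose by 0.80 ± 0.27 at 3 days (adjusted p = 0.0310) and by 1.48 ± 0.27 at 14 days (adjusted p = 0.00322).

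Dnah2 and Dnah7, also heavy chains of inner arms, rose at 14 days by 1.33 ± 0.27 and 1.43 ± 0.33 (adjusted p = 0.00799 and 0.0176). At 3 days their differences were 0.46 ± 0.27 and 0.80 ± 0.33 and were not called. Dnai1, an intermediate chain of the outer arms, read 7.60, 7.89 and 7.79 in 14-day controls and 8.65, 8.68, 8.66, 9.10 and 9.10 in PI arrays, a rise of 1.08 ± 0.26 (adjusted p = 0.0223). Dnai7 rose by 0.85 ± 0.22 at 14 days. Dnah17, an outer arm heavy chain best known from sperm, differed from the rest: it rose by 0.34 ± 0.09 at 3 days (adjusted p = 0.00616) and had a difference of 0.07 ± 0.09 at 14 days, and its values were low, between 4.89 and 5.50 over all mucosa arrays.

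Of the dynein assembly factors, 5 of 6 were higher at 3 days and 2 of 6 at 14 days. Here too the difference between 3 and 14 days was called for none. Every PI array lay above every control array in 5 of 6 at 3 days and in 6 of 6 at 14 days. This held for 17.6% and 7.95% of all genes. The median log2 fold changes of the 6 were 0.61 and 0.54. Dnaaf1, which preassembles both kinds of arm, read 7.09, 7.17 and 6.94 in 3-day controls and 8.0, 8.39, 8.19, 8.39 and 9.26 in PI arrays. At 14 days it read 7.06, 7.20 and 7.11 in controls and 8.35, 8.30, 8.12, 8.39 and 8.49 in PI arrays. The lowest PI array exceeded the highest control by more than the whole range of the controls at both times, and Dnaaf1 rose by 1.38 ± 0.23 and 1.21 ± 0.23 (adjusted p = 0.000147 and 0.00526).

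Dnaaf3 rose by 1.10 ± 0.25 at 3 days (adjusted p = 0.00228), and its difference at 14 days was 0.88 ± 0.25 (adjusted p = 0.0619). Dnaaf5, whose promoter window is printed above, rose by 0.66 ± 0.16 at 3 days and had a difference of 0.33 ± 0.16 at 14 days. Dnaaf10 rose by 0.39 ± 0.13 at 3 days. Dnaaf8 was called at both times, with 0.57 ± 0.19 and 0.74 ± 0.19, although its other probe set, of lower signal, gave 0.24 and 0.27. Dnaaf9 had differences of 0.01 ± 0.15 and 0.27 ± 0.15.

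Of the 7 tektins, 3 were higher at 3 days and 4 at 14 days. Tekt1, Tekt2 and Tekt4, filament proteins of the axoneme, rose at both times, and Tekt3 at 14 days. Tekt1 read 8.93, 9.05 and 8.69 in 3-day controls and 10.08, 10.47, 10.10, 10.45 and 10.93 in PI arrays. In the 14-day groups it read 8.70, 8.91 and 8.68 in controls and 10.14, 9.98, 9.98, 10.21 and 10.54 in PI arrays. The groups were separated by about 1 log2 unit at both times, and the rise was 1.52 ± 0.28 and 1.40 ± 0.28 (adjusted p = 0.000346 and 0.00647). Tekt2 rose by 0.93 ± 0.28 and 1.17 ± 0.28, and Tekt4 by 0.99 ± 0.30 and 1.31 ± 0.30. The other 3, Tekt5, Tekt5l1 and Tektl1, had differences between -0.21 and 0.06 at the 2 times, with no call; Tekt5 is known from sperm flagella.

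Radial spoke genes were higher at 3 days in 4 of 5 and at 14 days in 2 of 5. Rsph1, a protein of the spoke head, read 7.68, 7.77 and 7.56 in 3-day controls and 8.42, 8.84, 8.29, 8.84 and 8.63 in PI arrays. At 14 days the controls read 7.73, 7.70 and 7.72 and the PI arrays 9.08, 8.68, 8.93, 9.41 and 9.22. No array overlapped, and Rsph1 rose by 0.94 ± 0.30 and 1.35 ± 0.30 (adjusted p = 0.0258 and 0.0144). Rsph10b rose by 0.87 ± 0.25 and 1.16 ± 0.25, although its other probe set, of lower signal, gave 0.07 at both times. Rsph9, another head protein, rose by 0.79 ± 0.27 at 3 days and had a difference of 0.94 ± 0.27 at 14 days (adjusted p = 0.0664). Rsph6a, a paralogue best known from sperm, rose by 0.38 ± 0.11 at 3 days and had a difference of -0.12 ± 0.11 at 14 days.

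**Figure D3:**
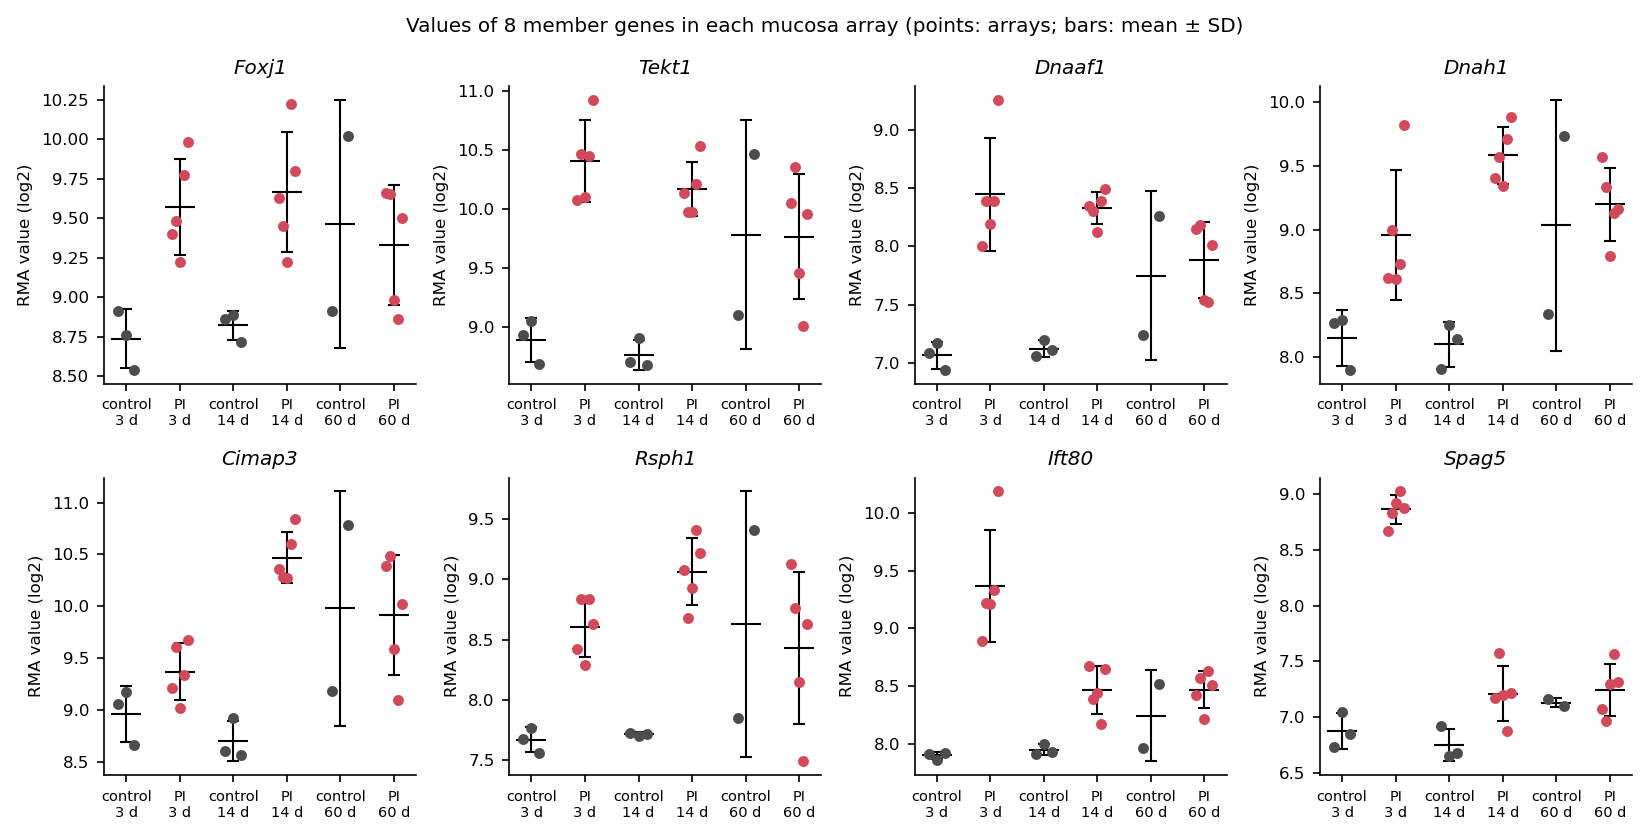
RMA values (log2) of 8 members in each mucosa array, by group, with points for arrays, horizontal marks for means and bars for SD. The 3- and 14-day PI arrays of Foxj1, Tekt1, Dnaaf1, Dnah1, Rsph1 and Ift80 lie above their controls, Cimap3 is apart at 14 days and Spag5 at 3 days. In all but Spag5, 60-day control array 2 lies above control array 1.

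Of the 22 Cfap and Cimap genes, 10 were higher at 3 days and 9 at 14 days, 5 of them at both: Cfap126, Cfap144, Cfap161, Cfap276 and Cfap45. These 5 code for proteins inside or along the doublet microtubules. Cfap161 read 8.05, 7.97 and 7.80 in 3-day controls and 8.69, 9.18, 8.90, 9.16 and 9.84 in PI arrays, and rose by 1.22 ± 0.33 (adjusted p = 0.00881). Cfap144 rose by 1.15 ± 0.36 at 3 days and 1.34 ± 0.36 at 14 days (adjusted p = 0.0220 and 0.0479). Cfap45 rose by 1.01 ± 0.25 and 1.11 ± 0.25, Cfap276 by 1.03 ± 0.27 and 1.24 ± 0.27, and Cfap126 by 0.73 ± 0.21 and 0.97 ± 0.21.

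The 2 members of this group at the extremes in time were Cimap3 and Cfap90, although the test of the difference between 3 and 14 days called none of the 22. Cimap3, a ciliary microtubule-associated protein, read 9.06, 9.17 and 8.66 in 3-day controls and 9.21, 9.61, 9.02, 9.34 and 9.67 in PI arrays, which overlapped. At 14 days it read 8.60, 8.92 and 8.57 in controls and 10.36, 10.28, 10.27, 10.60 and 10.84 in PI arrays. Here the lowest PI array was more than 1 log2 unit above the highest control. The difference was 0.40 ± 0.30 at 3 days and the rise 1.77 ± 0.30 at 14 days (adjusted p = 0.361 and 0.00175). The related Cimap1b had 0.45 ± 0.28 and 1.32 ± 0.28 (adjusted p = 0.254 and 0.00945).

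Cfap90, a protein of the inside of the doublets, read 6.49, 6.37 and 6.14 in 3-day controls and 7.28, 7.82, 7.45, 7.53 and 7.40 in PI arrays, a rise of 1.16 ± 0.21 (adjusted p = 0.000272). At 14 days its controls read 6.35, 6.12 and 6.32 and its PI arrays 6.50, 6.67, 6.49, 6.56 and 6.59, a difference of 0.30 ± 0.21 that was not called. Cimap1a, by contrast, was negative at 14 days (-0.20 ± 0.09, adjusted p = 0.285). For Cfap69 the probe sets disagreed at 3 days, where the one used gave 0.13 and the other 1.48.

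IFT genes were higher at 3 days in 11 of 17 and at 14 days in 4 of 17, with 16 and 17 positive fold changes. Their median log2 fold change was 0.56 at both times. Ift80, of the IFT-B complex that carries cargo towards the tip, read 7.91, 7.86 and 7.92 in 3-day controls and 8.89, 9.22, 9.21, 9.33 and 10.19 in PI arrays. In the 14-day groups it read 7.91, 8.0 and 7.93 in controls and 8.67, 8.39, 8.44, 8.17 and 8.65 in PI arrays. The controls lay close together, and all PI arrays were above them at both times. Ift80 rose by 1.47 ± 0.20 at 3 days (adjusted p = 9.96e-06) and had a difference of 0.52 ± 0.20 at 14 days (adjusted p = 0.203).

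Ift74 and Ift81, which bind tubulin together in IFT-B, rose by 1.22 ± 0.19 and 1.06 ± 0.22 at 3 days (adjusted p = 7.30e-05 and 0.000948). At 14 days Ift74 rose by 0.74 ± 0.19, and Ift81 had 0.72 ± 0.22 (adjusted p = 0.0393 and 0.0805). Ift70a1 and Ift70b, copies of one IFT-B protein whose probes could share signal, rose by 1.05 ± 0.22 and 1.00 ± 0.24 at 3 days. Ift57 and Ift88, also of IFT-B, were called at both times, with 0.56 ± 0.19 and 0.75 ± 0.19 for Ift57 and with 0.39 ± 0.13 and 0.59 ± 0.13 for Ift88. Ift140, of the IFT-A complex that serves the return from the tip, had 0.19 ± 0.19 at 3 days and rose by 0.81 ± 0.19 at 14 days (adjusted p = 0.518 and 0.0223). The probe set used for Ift22 is of a kind that can also detect other transcripts, and the probe sets of Ift122 and Ift46 differed in their 3-day values (0.08 against 0.65, and 0.01 against 0.43).

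Of the 7 Bbs genes, 2 were higher at 3 days and 0 at 14 days, where limma gave an unadjusted p under 0.05 in 4. Bbs5, a BBSome subunit that binds lipids of the ciliary membrane, read 8.49, 8.49 and 8.15 in 3-day controls and 9.06, 9.33, 9.15, 9.34 and 9.88 in PI arrays, and rose by 0.98 ± 0.23 (adjusted p = 0.00267). Its 14-day difference was 0.72 ± 0.23 (adjusted p = 0.0923). Bbs7, a core subunit, rose by 0.72 ± 0.18 at 3 days with the probe set used, whereas its other probe set gave 0.07. Bbs2, Bbs4 and Bbs9, further subunits, had 3-day differences of 0.12, -0.15 and -0.05.

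Of the 6 Spag genes, 1 was higher and 1 lower at 3 days and 0 were called at 14 days. Spag5 codes for astrin, a protein of the mitotic spindle and not of the axoneme. It read 6.73, 7.05 and 6.85 in 3-day controls and 8.67, 8.83, 8.92, 9.03 and 8.88 in PI arrays, a rise of 1.99 ± 0.14 (adjusted p = 1.08e-09) that was the largest of any member. At 14 days it read 6.92, 6.65 and 6.68 in controls and 7.17, 7.58, 7.20, 6.88 and 7.22 in PI arrays, so that the groups overlapped, with a difference of 0.46 ± 0.14 (adjusted p = 0.0766). Markers of dividing cells moved with it: 13 of 16 were higher at 3 days, with Ccna2 at 2.52 ± 0.19 and Cdk1 at 2.48 ± 0.27.

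Spag9, a scaffold protein of JNK signalling, was the only member lower at 3 days (-0.80 ± 0.23, adjusted p = 0.0129), in 5 of 5 PI arrays. This held for 1 of its 4 probe sets, since the others gave 0.09, 0.48 and 0.40, and the direction was turned with the probe set of highest mean (0.09) and with the mean of all 4 (0.04). Spag16, a protein of the central pair, had -0.10 ± 0.16 at 3 days and 0.50 ± 0.16 at 14 days, both not called. Without the Spag genes, 38 of 71 members were higher at 3 days and 26 of 71 at 14 days.

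Axoneme genes outside the name rule were also often higher. Their list was chosen with earlier results of these data known and was measured on the same arrays, so it is no independent support. Of 33 measured genes of this list of other motile axoneme genes, 23 were higher at 3 days and 18 at 14 days. Of all genes 14.5% and 2.11% were higher. In the list 0 were lower at either time, and the medians were 0.81 and 0.89. Ropn1l, of the radial spoke, rose by 2.25 ± 0.34 and 1.51 ± 0.34, and Drc3, of the nexin-dynein regulatory complex, by 1.48 ± 0.32 and 1.33 ± 0.32. Wdr38 rose by 1.94 ± 0.29 at 3 days and had 0.89 ± 0.29 at 14 days. Of 28 other genes of ciliary transport and the transition zone, 9 were higher at 3 days and 3 at 14 days. Among them Kif3a, a motor subunit of IFT trains, rose by 1.15 ± 0.12 and 0.55 ± 0.12, and Nphp4, of the transition zone, by 0.81 ± 0.14 and 0.51 ± 0.14.

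Markers of other cells are given beside these counts because whole mucosa was measured. Of 8 markers of epithelium in general, 0 were called at 3 or 14 days; Krt8 had 0.13 ± 0.11 and 0.18 ± 0.11 and Epcam 0.03 ± 0.09 and 0.01 ± 0.09. Their mean level lay between 11.84 and 12.04 in 3-day controls and between 11.88 and 12.07 in PI arrays, and between 11.84 and 12.06 in 14-day controls and between 12.02 and 12.22 in PI arrays. Of 13 markers of secretory and gland cells, 1 was higher and 4 were lower at 3 days, led by Tff2 with -3.49 ± 0.65 and Bpifb1 with 2.70 ± 0.30, and 0 were called at 14 days. Of 7 markers of basal and stratified epithelium, 2 were higher and 1 was lower at 3 days, and 0 were called at 14 days.

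Skeletal muscle markers were lower at 3 days in 7 of 10 (Mb, -1.23 ± 0.17), and their mean level was 12.20 to 12.92 in controls and 11.64 to 12.51 in PI arrays. At 14 days 1 of 10 was higher. The mean level of the dividing cell markers was 7.63 to 8.14 in 3-day controls and 9.33 to 9.48 in PI arrays, and 7.65 to 7.86 and 7.80 to 8.28 at 14 days. Of 6 fibroblast markers, 4 were higher at 3 days and 3 at 14 days. Of 8 leukocyte markers, 2 were higher and 1 was lower at 3 days, and of 9 germ cell markers 2 were higher at 3 days. The part of these markers' cells in the members' values was not tested.

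At 60 days limma gave an unadjusted p under 0.05 in 0 members and in 1276 of 14217 genes. It called no member, where it called 0.0492% of all genes. The lognormal-normal model also called 0. Tekt1 read 9.10 and 10.47 in the 2 control arrays and 10.05, 10.36, 9.46, 9.01 and 9.96 in the PI arrays. Rsph1 read 7.85 and 9.41 in controls and 9.13, 8.76, 8.15, 7.49 and 8.63 in PI arrays. In both genes control array 1 was near the younger controls, control array 2 was above all 5 PI arrays, and PI array 4 was below control array 1.

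Without 60-day control array 2 and PI array 4, the median over the members at 60 days was 0.51 in place of -0.01. Over all genes it was -0.02 in place of -0.03. The fold change was positive in 72 of 77 members in place of 36. These 2 arrays were picked because control array 2 was high and PI array 4 low in these same genes, so a shift of the members to higher values was fixed by the choice and is no support for a difference. In that fit the lone control array is assumed to vary like the other groups. The difference was then 0.86 for Tekt1, 0.94 for Cimap3, 0.87 for Dnah1, 0.82 for Rsph1, 0.54 for Foxj1 and 0.01 for Spag5. These are sizes of effect against 1 control array, and no call is read from them. Without control array 2 alone the median was 0.39, and without control array 1 alone it was -0.38. The sign of the 60-day difference thus depended on which of the 2 control arrays was kept, and which of them stands for uninjured mucosa at this age cannot be told apart.

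The injury effects themselves differed between 3 and 14 days in 3 members, where 7.9% of all genes were called: Ift80 by 0.95 ± 0.28 (adjusted p = 0.0376), Spag5 by 1.53 ± 0.19 (adjusted p = 3.41e-05) and Spag9 by -1.09 ± 0.32 (adjusted p = 0.0428), each as the 3-day minus the 14-day effect. For Cimap3 the difference was -1.37 with and without the 2 doubtful 60-day arrays, and with all arrays it was not called. Leaving out arrays that deviate in these same genes lowers the estimated spread, so a call gained that way is no support. Between 3 and 60 days 8 members differed, where 13.4% of all genes did. Besides Spag5 (1.87 ± 0.21), Ift80 (1.24 ± 0.30) and Spag9 (-1.27 ± 0.35) these were Tekt1 (1.54 ± 0.42), Dnaaf1 (1.25 ± 0.35), Cfap90 (1.21 ± 0.32), Ift74 (1.11 ± 0.29) and Ift70a1 (1.02 ± 0.33). Without the 2 arrays only Spag5 (1.98, adjusted p = 2.40e-05) and Spag9 (-1.45, adjusted p = 0.0290) of these 8 were called, and Tekt1 was at 0.66 (adjusted p = 0.242). Between 14 and 60 days limma called 0 members, with 0.0774% of all genes called. An unadjusted p under 0.05 was found in 35 of 77 members and in 1010 of 14217 genes. Without the 2 doubtful arrays 0 members were called, and the median over the members of the 14-day minus the 60-day effect was 0.16 in place of 0.59. The counts against 60 days moved with which 60-day control array was left out. Those fits hold 1 control array at 60 days and the share of all genes was not computed, so their counts are no result about the members.

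Among the PI groups alone, 24 of 77 members changed over time by limma's F test, where 38.4% of all genes did, so the members' share was not above that of all genes. Spag5 (adjusted p = 4.99e-10), Ift80 (0.000213), Cfap90 (0.000559) and Cimap3 (0.00666) were among these 24. Without the 2 doubtful 60-day arrays the share of all genes was not computed, so the members' count is not given. Across the 3 control groups limma called 0 members and 0.0141% of all genes, 13 of 77 members and 944 of 14217 genes had an unadjusted p under 0.05, and the lognormal-normal model called 0. Without the 2 doubtful arrays limma also called 0.

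Set against cultured fibroblasts, most motile cilium members were lower in the cultures than in mucosa, and most transport members were not. In naive VF fibroblast cultures, 38 of 77 members were lower than in the 8 control mucosa arrays and 21 were higher, where 74.7% of all genes were called, 30.5% lower and 44.2% higher. Lower were 5 of 6 dynein chains, 5 of 6 assembly factors, 5 of 7 tektins, 3 of 5 radial spoke genes, 12 of 22 Cfap and Cimap genes and Foxj1 (-1.59). Higher in the cultures were 1 dynein chain, 1 assembly factor, 1 tektin, 1 radial spoke gene and 2 Cfap and Cimap genes. Among the IFT genes 8 of 17 were higher and 4 lower, and among the Bbs genes 4 of 7 were higher and 1 lower.

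Cfap144 had the largest difference (-5.32 ± 0.27, adjusted p = 3.17e-08), with 4.11, 3.67 and 4.12 in the cultures and 8.70 to 9.36 in the control mucosa arrays of 3 and 14 days. The differences were -3.40 for Cfap161 and Cimap3, -2.75 for Dnah1, -2.49 for Tekt2, -2.27 for Tekt4 and -2.01 for Rsph1. Ift80 read 9.17, 9.12 and 8.96 in the cultures, 1.06 ± 0.11 above the mucosa controls, and Ift74 was 0.84 ± 0.18 above them. The epithelial markers were far lower in the cultures too (Epcam, -8.11 ± 0.08), and the cultures and the mucosa differ in cell types, growth, handling, pooling (1 rat against 4) and age (180 days against 123, 134 and 180), which cannot be told apart. This comparison uses the same control arrays as the injury comparisons.

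**Figure D4:**
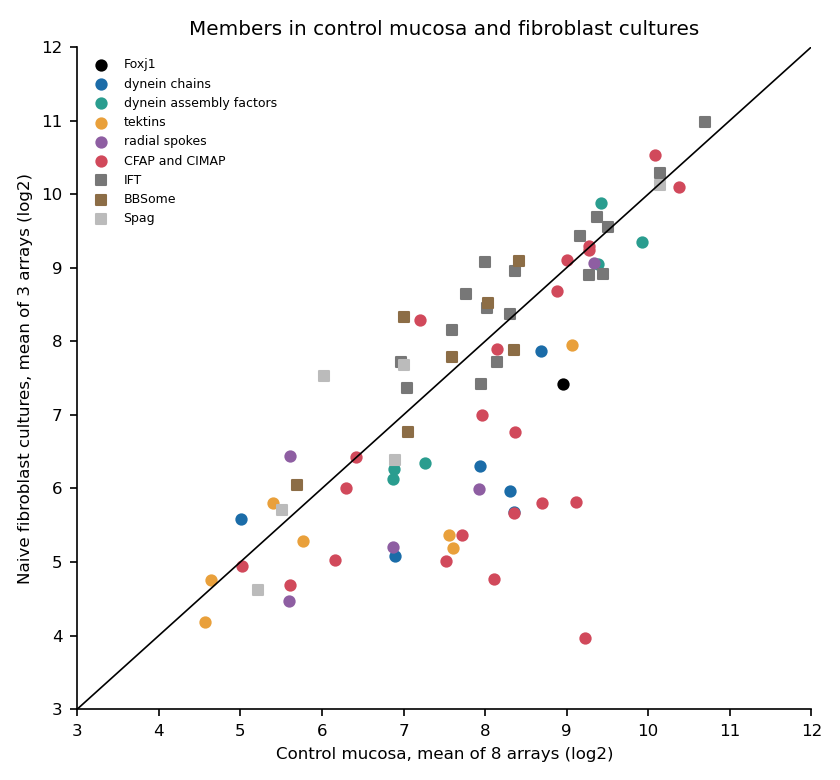
Mean level (log2) of each of the 77 members in control mucosa (8 arrays) and in naive fibroblast cultures (3 arrays), with circles for Foxj1 and the motile cilium groups, squares for Ift, Bbs and Spag genes and a line of equal levels. Most circles lie below the line, down to Cfap144, while most squares lie near or above it.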

How the data were processed

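Expression was measured on Affymetrix rat genome arrays, 23 of mucosa and 13 of fibroblast cultures. The deposited values are log2 intensities that the authors summarized per probe set by RMA (affy, per the submitters' processing notes). The sorted values of all 36 arrays differed by at most 0.03, so the arrays were normalized together to 1 distribution. Of 31099 probe sets, 57 were control probe sets. Symbols came from the platform annotation, updated through RefSeq gene numbers: 20832 probe sets had 1 symbol, 436 several and 9831 none, which left 14217 genes. Of a gene's probe sets the one with the median mean over the mucosa arrays was used, as the methods state.

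All 6 mucosa groups entered 1 fit in limma 3.58.1 (R 4.3.3), with contrasts for injury at each time and between times and F tests across times. The cultures and control mucosa had their own fit. Calls needed a Benjamini-Hochberg adjusted p under 0.05 over all 14217 genes. An implementation of the methods' lognormal-normal model, written for this work, called at a posterior probability over 0.95. Both were tested on simulated data. Named genes were, in each symbol group and comparison, up to 3 called members each way with the largest change, those called at 2 times, the largest called differences between times, Foxj1, and 2 genes of each marker list; other genes named were chosen after their values were seen. The members and lists were chosen with earlier results of these data known. Scar and siRNA cultures were left out of the tests.

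Arrays with the same replicate number were not paired: the correlation of their deviations ranged from -0.13 to 0.31. The alternatives were other rules for probe sets, a filter on low values, array weights, centring, a variance trend, arrays of 1 time alone, pooled controls, the replicate block and leaving out arrays. Of the members, 17 had a mean below the 30th percentile of all genes (6.99). No 2 replicates were alike enough to be 1 array. The number of arrays limits the precision.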

Additional observations from a re-analysis of the deposited data

Results flagged for a closer look

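In PI groups of 5 arrays, the named members were examined for a single array far from the other 4. Of 99 groups tested (33 genes at 3 times), 8 had such an array by Dixon's 95% criterion, and chance gives about 1 in 20 groups. In 7 of the 8 it was the highest value and lay in 3-day PI array 5. There Bbs7 read 8.0 (the other 4 arrays 7.24 to 7.44), Ift74 9.43 (8.66 to 8.84), Ift140 9.9 (9.05 to 9.29), Ift88 9.01 (8.44 to 8.57), Dnaaf3 8.6 (7.58 to 7.85), Dnaaf5 11.22 (10.22 to 10.48) and Dnah2 7.88 (6.81 to 7.08). Array 5 is 1 of the 3 arrays that deviated together over all genes. The remaining value was Dnah7 in 60-day PI array 3, at 8.28, below the other 4 arrays (9.10 to 9.35).

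The injury effect differed between times by limma's test of the difference in these members. The 3-day minus 14-day difference was 0.95 for Ift80, 1.53 for Spag5 and -1.09 for Spag9. The 3-day minus 60-day difference was 1.54 for Tekt1, 1.25 for Dnaaf1, 1.21 for Cfap90, 1.11 for Ift74, 1.02 for Ift70a1, 1.24 for Ift80, 1.87 for Spag5 and -1.27 for Spag9. The values against 60 days rest on the 2 control arrays of that time, which differed from each other in these genes except Spag5 (7.16 and 7.10).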

How the results depend on the processing

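The number of members called changed with the processing. The share of all genes called was not computed for array weights, arrays of 1 time alone, pooled controls or the replicate block. It was also not computed for the comparisons between times when arrays were left out. The counts of these settings are therefore not read as results about the members. The 14-day count, 26 (3.07% of all genes), was 59 with array weights and 47 with the arrays of that time alone. It was 41 in the lognormal-normal model, which called 4.38% of all genes. Leaving out the 2 doubtful arrays, 60-day control array 2 and PI array 4, was an alternative chosen after seeing the data. The count for 3 against 14 days, 3, was 19 with array weights, 19 with the controls of all ages pooled, 7 without the 3 arrays that deviated together and 8 without the 2 doubtful 60-day arrays. The count for 3 against 60 days, 8, was 35 with array weights, 17 with pooled controls and 3 without the 2 doubtful arrays. With pooled controls 4 members were called at 60 days and 1 between 14 and 60 days. Array weights called 15 members across controls (0 otherwise). Across PI groups the lognormal-normal model called 7 members and 23.6% of all genes, and limma 24 members and 38.4% of all genes. The members' share was not above that of all genes in either. Leaving out 1 array at a time gave 23 to 43 members at 3 days, 6 to 37 at 14 days, 0 to 0 at 60 days, 1 to 6 for 3 against 14 days, 3 to 29 for 3 against 60 days and 0 to 9 for 14 against 60 days. Spag9 at 3 days turned to 0.09 with its brightest probe set and 0.04 with the mean of its probe sets. The share of members with the X-box arm cannot be read for members lower at 3 days, since it rests on 1 gene (0.0%, exact interval 0.0 to 97.5). With the replicate number as a block the counts were 39, 20 and 0 at 3, 14 and 60 days, although the numbers did not pair the arrays. Of 3651 values of named genes under alternatives, 3459 kept direction and side of the threshold, 133 lost the call, 57 gained one and 2 turned. The causes were not tested. Of the members, 17 were of low signal.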
